A study of Mus musculus with 2 samples.

Results

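Cajal-Retzius neurons are described here in single-cell RNA of the hippocampus of 5xFAD mice. They were picked by their RNA from 25141 deposited cell barcodes, of which 24906 passed a minimum of 200 detected genes and a maximum of 20% for UMIs of mitochondrial genes (unique molecular identifiers, each standing for a captured RNA molecule). A member had at least 3 UMIs in total from Reln, Trp73, Lhx1os, Lhx5 and Nhlh2, and at least 2 UMIs from the neuronal genes Snap25, Stmn2, Stmn3 and Meg3. It also had under 1% of its UMIs from the astrocyte genes Slc1a2, Slc1a3, Gja1 and Aqp4, and under 3 UMIs from the genes of excitatory forebrain neurons Slc17a7, Camk2a and Nrgn. 176 cells met the rule, 149 in the library of the NeuroD1 vector and 27 in the library of the GFP vector.

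Cajal-Retzius neurons are early-born glutamatergic cells of the marginal zone. They reach the developing cortex and hippocampus from the cortical hem and other border sources, and they secrete reelin, a large extracellular glycoprotein that guides the layering of later-born neurons through the receptors Vldlr and Lrp8 and the adaptor Dab1. Most of those in the neocortex die in the first postnatal weeks, whereas in the hippocampus some persist into adult life along the hippocampal fissure, where they form synapses with interneurons. Hem-derived cells carry the p53-family transcription factor Trp73, the LIM-homeodomain factors Lhx1 and Lhx5, and the basic helix-loop-helix factor Nhlh2.

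5xFAD mice carry human transgenes with familial Alzheimer's disease mutations, driven by the neuronal Thy1 promoter. One group received AAV9-GFAP::NeuroD1-P2A-GFP, an adeno-associated virus in which the astrocyte promoter GFAP drives the neurogenic transcription factor NeuroD1 together with green fluorescent protein, and the other group received AAV9-GFAP::GFP. All animals carried the 5xFAD transgenes, and the labels give 6 months as the time. The hippocampi of 3 mice per group were taken 3 weeks after injection, dissociated with papain and loaded into a microwell chip, and each group was deposited as 1 library. The chip is given as in the extraction protocol, whereas a description label names a different platform. There is no replicate of either group, so no test between the groups was possible. Intervals below are exact 95% intervals that cover counting error only.

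The libraries held 51236521 and 17504950 UMIs in 13402 and 11739 barcodes (NeuroD1 first, as in all pairs of values below). Kept cells had medians of 2599 and 1195 UMIs. The libraries stood apart in other ways that touch the cells described here. Ttr, the transthyretin RNA of choroid plexus epithelium, made up 12.7% and 2.11% of the UMIs of kept cells, and 2.95% and 0.200% of the UMIs of Cajal-Retzius cells. Xist had 0 and 4 UMIs in Cajal-Retzius cells and the Y-linked Ddx3y 27 and 0 UMIs, and the same split was seen in all other kept cells, where Xist was at 0.0396 and 104 CPM (counts per 1000000 UMIs of those cells). The sex of the animals, the vector and the library therefore cannot be told apart. The libraries had 99 barcode sequences in common. No member of either library shared its barcode with a member of the other, and 1 GFP member shared its barcode with a cell of the NeuroD1 library that was no member.

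Cajal-Retzius cells made up 1.12% of kept cells with the NeuroD1 vector (149 of 13271, Clopper-Pearson interval 0.951 to 1.32%) and 0.232% with the GFP vector (27 of 11635, 0.153 to 0.337%). The ratio of the shares was 4.84 (3.20 to 7.59). Among kept cells that met the neuronal and the astrocyte condition of the rule, 673 and 253 in number, the shares were 22.1% and 10.7%, and their ratio was 2.07 (1.37 to 3.25). The size of the difference thus depended on the denominator and on the minimum, and the rule counts UMIs, so a deeper cell passes it more easily. After every kept cell was thinned to 500 UMIs the rule found 15 and 3 cells, a ratio of 4.38 (1.24 to 23.6). With a minimum of 5 UMIs of the selection genes in place of 3 the ratio was 9.09 (4.89 to 18.7), on 114 and 11 cells. Fewer cells of this kind in the tissue and fewer of them recovered cannot be told apart.

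Members had medians of 2330 UMIs (range 668 to 13851) and 1415 UMIs (825 to 3273), and medians of 1492 and 938 detected genes. Their mitochondrial share was low, with medians of 1.17% and 1.97% against 2.64% and 3.80% over all kept cells. A single UMI in the summed members was worth 2.37 and 23.5 CPM, and 3 UMIs, the limit that a count of 0 allows, 7.10 and 70.4 CPM. By the same approximation, a gene seen in 0 of the 149 or 0 of the 27 cells could still have had a UMI in up to 2.01% or 11.1% of such cells. The exact intervals end at 2.45% and 12.8%.

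**Figure D1:**
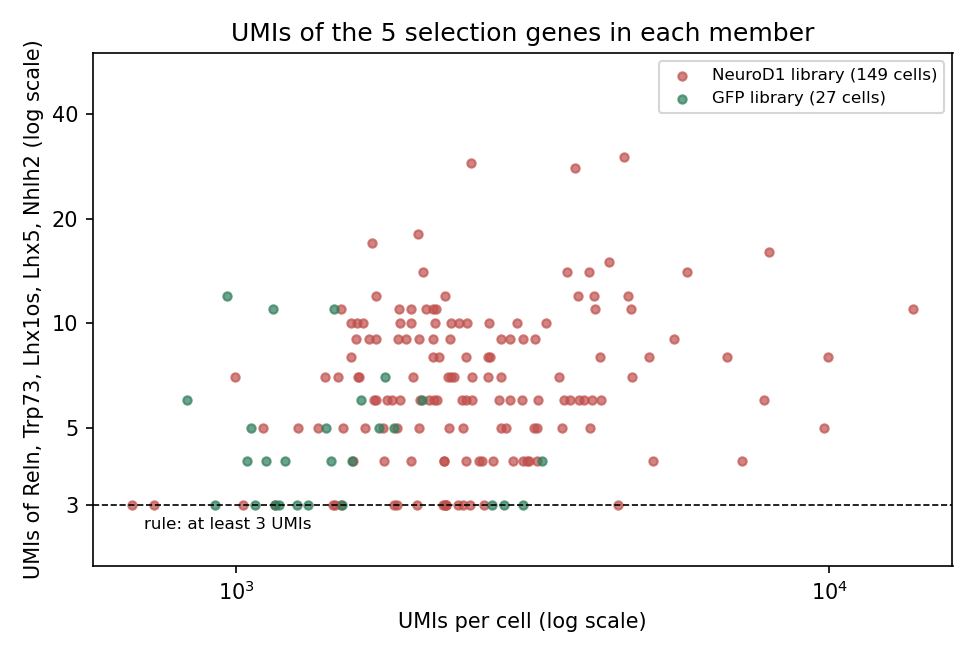
Each point is a Cajal-Retzius cell, with its total UMIs on the x axis and its UMIs of the 5 selection genes on the y axis (both log scales), coloured by library; the dashed line marks the minimum of 3 UMIs. Cells of the NeuroD1 library reach 30 UMIs of these genes and a median of 6, and those of the GFP library reach 12 and a median of 4.

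The values that chose the members are given as a description. Reln had 416 UMIs in 126 of 149 cells and 60 UMIs in 21 of 27 cells, which is 985 and 1409 CPM, against 1.25 and 2.59 CPM in all other kept cells. Trp73 was at 334 and 376 CPM, and Nhlh2 at 568 and 775 CPM. Lhx1os, the long noncoding RNA transcribed antisense to Lhx1, was at 438 and 423 CPM. The sources used here do not say whether the authors counted by strand; if they did not, reads of Lhx1os and Lhx1 cannot be told apart. Lhx5 was at 343 CPM (80 of 149 cells) and 141 CPM (5 of 27 cells). Members held 86.8% and 57.1% of all Reln UMIs of kept cells, and 93.5% and 50% of all Lhx5 UMIs, so in the shallower library more of these UMIs lay outside the members.

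Individual cells showed different combinations of the selection genes. In the NeuroD1 library 22 of 149 members had all 5 and 4 had a single one of them, whereas in the GFP library no member had all 5 and 16 of 27 had 2. Reln was absent from 23 and 6 members, and 1 and 2 members had Reln only. Reln alone also marks a class of GABAergic interneurons, but Gad1 and Gad2, the enzymes of GABA synthesis, had 0 UMIs in the members of both libraries. Slc32a1, the vesicular GABA transporter, had 1 UMI in the NeuroD1 members and 0 in the GFP members.

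At the edge of the rule, 19 and 10 members had exactly 3 UMIs of the selection genes. Of these, 17 and 10 had a UMI of Ndnf, a secreted factor that the rule does not use. A further 16 and 10 cells met every other condition with exactly 2 UMIs, and 15 and 7 of them had Ndnf. With 1 UMI of the selection genes there were 25 and 13 cells, 10 and 10 of them with Ndnf, and with 0 there were 467 and 133 cells, 31 and 5 of them with Ndnf. The rule therefore left out cells that carried Ndnf, in both libraries.

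The label was checked with 18 genes of Cajal-Retzius neurons outside the rule. In the NeuroD1 library 13 of the 18 had at least 20 UMIs in members, and all 13 were at least 4-fold higher in members than in the other kept cells, where 12.4% of all 4434 genes with as many UMIs were. These 13 were kept by their UMIs in members, and the rule asks for neuronal RNA. Only 673 and 253 kept cells met its neuronal and astrocyte conditions. A higher level than in all other cells therefore says little about the kind of neuron. Ndnf had 1137 UMIs in 146 of 149 cells and 126 UMIs in 27 of 27 cells, at 2692 and 2958 CPM. The other kept cells were at 21.8 and 24.0 CPM, and 4.98% and 2.19% of them had a UMI of it, at median depths of 2603 and 1195 UMIs against 2330 and 1415 UMIs in members. Lhx1 was at 464 and 376 CPM against 0.574 and 1.56 CPM. Mab21l1, a nuclear protein of the embryonic forebrain and eye, was at 258 and 235 CPM (7 of its 10 GFP UMIs lay in 1 cell) against 0.495 and 0.691 CPM. Tbr1, the T-box factor of early-born glutamatergic cortical neurons, was at 279 and 211 CPM. Ebf3, a transcription factor of hem-derived cells, was at 147 and 141 CPM, and Cacna2d2, an auxiliary calcium channel subunit, at 220 and 188 CPM. Nr2f2, at 253 and 352 CPM, and Emx2, at 249 and 141 CPM, were also found in other cells (27.0 and 19.6 CPM, and 31.0 and 20.6 CPM). The related Ebf1 (10 and 0 UMIs) and Ebf2 (0 and 0 UMIs) were at or near 0, as was Eomes, the T-box factor of intermediate progenitors (2 and 0 UMIs). The 18 genes summed to 6042 and 6291 CPM in members. They summed to 1607 and 2913 CPM in immature neurons and to 414 and 243 CPM in excitatory neurons, sets described below. Ndnf and Slc17a6, the gene of a vesicular glutamate transporter, were the only 2 of the 18 with at least 20 UMIs in each library. At 2958 and 1150 CPM they made up most of the sum in GFP members, and GFP immature neurons had 0 UMIs of both. Without these 2 genes the sum in members was below that in immature neurons in the GFP library, and above it in the NeuroD1 library. Calb2 was at 1738 CPM in GFP immature neurons and at 235 CPM in GFP members. The data did not go against the label, but in the GFP library it rests on few UMIs for most genes.

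**Figure D2:**
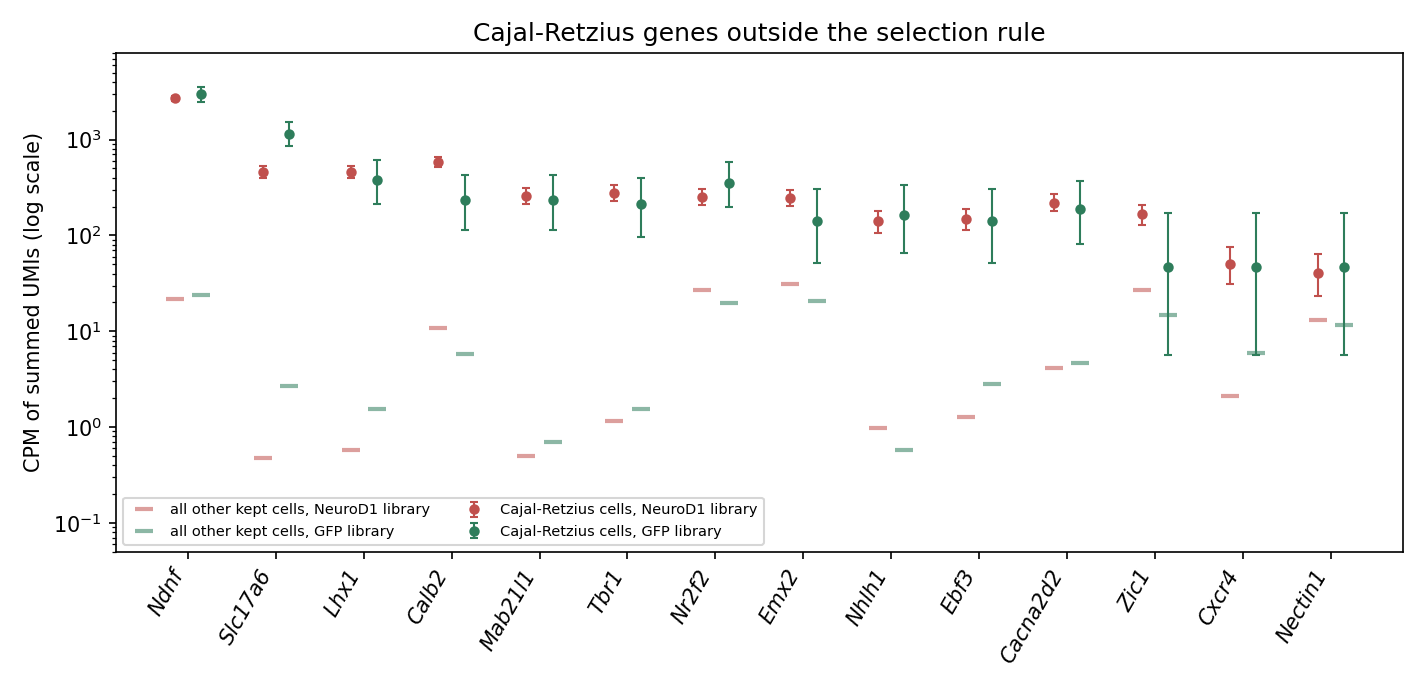
Levels (CPM of summed UMIs, log scale) of 14 Cajal-Retzius genes that the selection rule does not use; points are members with exact Poisson 95% intervals and dashes are all other kept cells, by library. Members lie above the other cells for every gene shown, and for Ndnf the libraries are at 2692 and 2958 CPM.

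Members were next set beside other neurons of the same libraries. Immature neurons (at least 3 UMIs from Igfbpl1, Sox11, Dcx, Cd24a and Draxin) numbered 96 and 14, and excitatory neurons (at least 3 UMIs from Slc17a7, Camk2a and Nrgn) numbered 13 and 70. The GFP immature set and the NeuroD1 excitatory set are thus small. The latter was also mixed, since the 10 endothelial genes summed to 17454 CPM in it against 939 CPM in the GFP excitatory set. Values of those sets carry this limit throughout.

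The transmitter genes were those of a glutamatergic neuron that uses the vesicular transporter Vglut2. Its gene Slc17a6 had 193 UMIs in 94 cells and 49 UMIs in 14 cells, at 457 and 1150 CPM. Immature neurons were at 2.90 and 0 CPM and excitatory neurons at 0 and 19.7 CPM. The other vesicular glutamate transporters were at or near 0 in members, Slc17a7, which the rule limits, with 0 and 0 UMIs and Slc17a8 with 3 and 0 UMIs. Of the 16 genes of GABA neurons, 12 and 15 had 0 UMIs in members. Cck, a neuropeptide, had 33 UMIs in 17 NeuroD1 cells and 0 in GFP cells.

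Genes of immature neurons separated the members from the neuroblasts. Dcx, which stabilises microtubules in migrating neurons, had 0 UMIs in members of both libraries and was at 136 and 94.0 CPM in immature neurons. Neurod1 had 5 UMIs in 4 of 149 members and 0 UMIs in the GFP members, against 874 and 1926 CPM in immature neurons. Sox11 had 7 and 0 UMIs, against 686 and 1034 CPM. Sox4 was at 144 and 93.9 CPM, against 1780 and 3007 CPM. Igfbpl1 had 12 UMIs, all in 3 NeuroD1 cells, and 0 in the GFP members; the immature set was chosen in part by this gene, Dcx and Sox11. Gap43, the growth cone protein, went the other way: it was at 1371 CPM (137 of 149 cells) and 1455 CPM (18 of 27), against 182 and 235 CPM in immature and 321 and 328 CPM in excitatory neurons. Stmn1, a microtubule destabiliser, was at 2782 and 1338 CPM in members and 3570 and 1691 CPM in immature neurons. Calb2, the calcium buffer calretinin, was at 587 CPM (81 cells) and 235 CPM (7 cells) in members and higher in immature neurons, at 854 and 1738 CPM, and so did not separate members from them.

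Most of the genes of mature synapses named here were at lower levels than in the 70 excitatory neurons of the GFP library, the larger excitatory set. Within the NeuroD1 library the order was reversed. The 28 genes of this list summed to 8743 CPM in NeuroD1 members and 6125 CPM in the small and mixed NeuroD1 excitatory set. In the GFP library they summed to 7700 and 33389 CPM. For NeuroD1 members the values below thus compare across libraries. Syt1, the calcium sensor of vesicle release, was at 817 and 775 CPM in members and at 2318 CPM in those neurons. Syp, a synaptic vesicle protein, was at 315 and 211 CPM against 1129 CPM. Rbfox3, which encodes the neuronal marker NeuN, had 8 UMIs in 4 cells and 0 UMIs, against 282 CPM. Nefl, the light neurofilament, had 0 UMIs in members of both libraries, against 604 CPM. Map1b and Snhg11 were not lower: Map1b, a microtubule-associated protein of growing axons, was at 1589 and 1714 CPM against 1681 CPM, and Snhg11, a neuronal noncoding RNA, at 1319 and 986 CPM against 335 CPM.

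The 18 glutamate receptor genes summed to 1001 and 822 CPM in members, above the 159 and 312 CPM of the other kept cells. The GFP excitatory neurons were higher, at 9048 CPM, but the small NeuroD1 excitatory set was at 797 CPM, below the NeuroD1 members. Of the 18, 11 and 5 had a UMI in members. Gria2, an AMPA receptor subunit, was at 542 and 282 CPM and Gria1 at 218 and 305 CPM. The GFP excitatory neurons had these genes at 3362 and 2062 CPM. Grin2a and Grin2b, subunits of NMDA receptors, had 0 and 1 UMIs in NeuroD1 members and 0 in GFP members, against 840 CPM for each in those neurons. Grm2, a presynaptic metabotropic receptor, was at 73.4 CPM (31 UMIs) and 93.9 CPM (4 UMIs), against 0.376 and 1.15 CPM in the other kept cells. Slc12a5, the chloride exporter of mature neurons, had 3 and 0 UMIs. Slc12a2, the chloride importer, had 28 UMIs in 9 cells and 10 UMIs in 3 cells, below or near its level in other kept cells (194 and 253 CPM).

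Among the voltage-gated channel genes, Cacna2d1, an auxiliary calcium channel subunit, was at 369 CPM (89 cells) and 376 CPM (11 cells), against 10.5 and 17.2 CPM in the other kept cells. Kcnh7, a potassium channel of the Erg family, was at 59.2 and 93.9 CPM against 0.396 and 2.71 CPM, on 25 and 4 UMIs. Scn3a, a sodium channel of developing neurons, had 23 UMIs in 21 NeuroD1 cells and 0 UMIs in GFP cells, and a gene with 20 UMIs split by the totals gives 1.83 UMIs in the GFP sum, so its absence there was not detectable at this depth.

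The receivers of reelin were not prominent in the cells that make it. Vldlr had 8 and 1 UMIs, Lrp8 5 and 1 UMIs, and Dab1 5 and 0 UMIs in members. In the other kept cells of the NeuroD1 library the same genes were at 46.3, 31.7 and 56.1 CPM. Pafah1b1, which encodes the dynein regulator Lis1, was at 573 and 587 CPM in members against 331 and 311 CPM. Of the 14 genes of the pathway, 13 and 7 had a UMI in members, and the list summed to 945 and 916 CPM against 900 and 808 CPM in other kept cells.

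**Figure D3:**
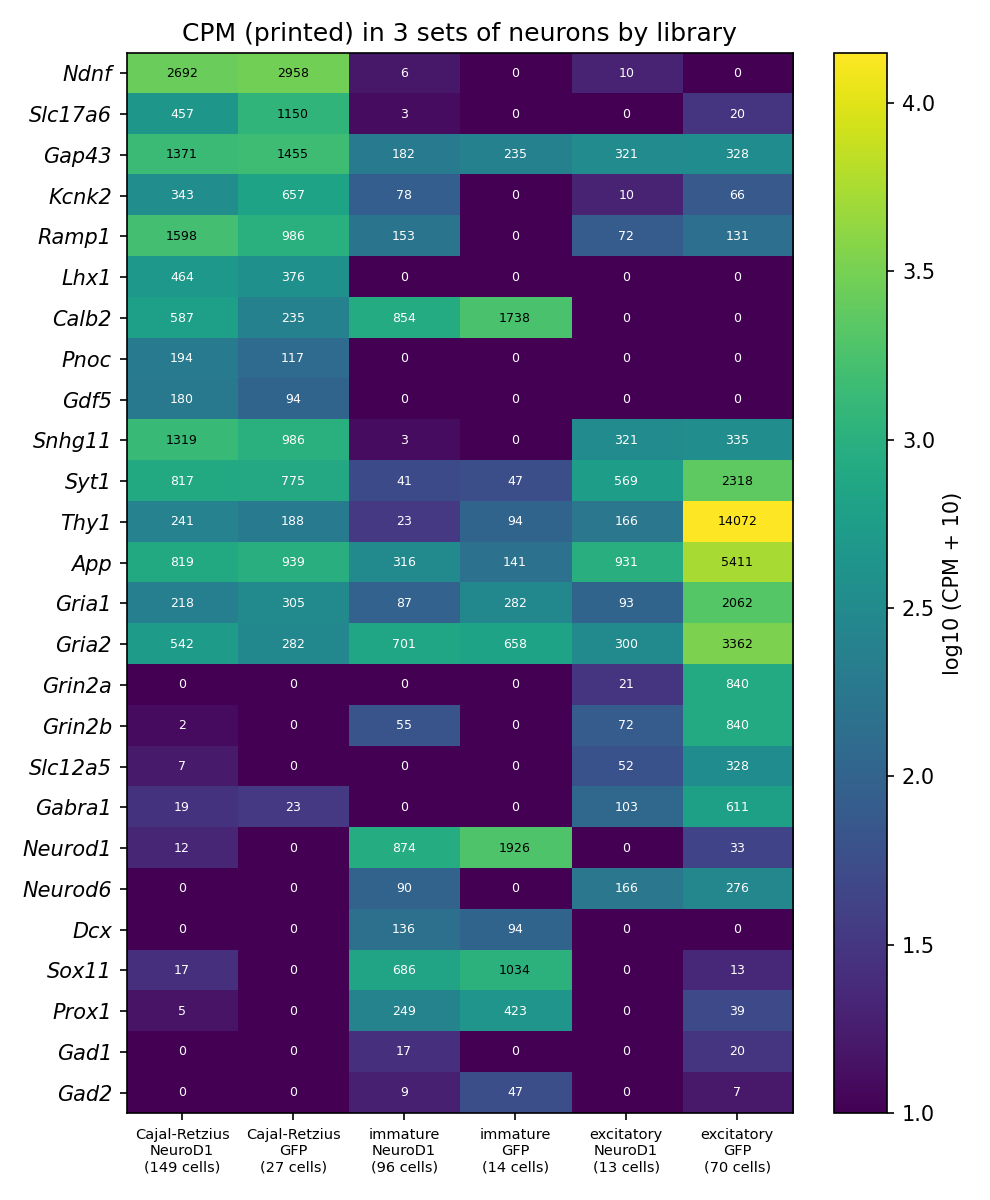
CPM of summed UMIs in Cajal-Retzius, immature and excitatory neurons of each library, printed in each cell of the plot and coloured by log10 (CPM + 10). Ndnf, Slc17a6, Lhx1, Pnoc and Gdf5 are higher in both Cajal-Retzius columns than in any other column, while Dcx, Sox11 and Neurod1 are highest in immature and Thy1, Grin2a and Slc12a5 in the GFP excitatory neurons.

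Across all genes with at least 20 UMIs in members of each library, 41 of 346 (11.8%) were at least 4-fold higher in members than in other kept cells in both libraries. Since the rule asked for neuronal RNA, most of the leading genes are shared with other neurons. Of the 20 outside the rule with the largest lower fold, 8 were also at least 4-fold higher than in immature neurons in both libraries, where 3.76% of the 346 genes were. Against excitatory neurons 5 of the 20 were, where again 3.76% of the 346 were. Celf4, an RNA-binding protein of neurons, was at 838 and 986 CPM, 89.1-fold and 75.1-fold over other kept cells. Ly6h, a modulator of nicotinic receptors, was at 1061 and 1103 CPM, and Dync1i1, a dynein intermediate chain, at 573 and 563 CPM with 0 UMIs in immature neurons. Chgb, a secretory granule protein, was at 663 and 634 CPM, and Pcp4, a calmodulin regulator, at 741 and 681 CPM. Ndn, the imprinted growth suppressor necdin, was at 679 and 986 CPM. The rule for named genes also gave Gm5124, whose 21 GFP UMIs lay in 3 cells, 19 of them in 1 cell.

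Only 5 of the 346 genes (1.45%) were at least 4-fold higher than in both other kinds of neuron in both libraries. They were Ndnf, Slc17a6, Gap43, Kcnk2 and Ramp1. Kcnk2, a tandem-pore potassium channel, had 145 and 28 UMIs, at 343 and 657 CPM, and 10 of the GFP UMIs lay in 1 cell. Ramp1, the subunit that makes the calcitonin receptor-like receptor a receptor for CGRP, had 675 UMIs in 141 of 149 cells and 42 UMIs in 19 of 27 cells, at 1598 and 986 CPM. Other kept cells had Ramp1 at 275 and 228 CPM, so it was 5.80-fold and 4.32-fold higher in members.

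Several genes under 20 UMIs in the GFP members had a much higher CPM in members than in other kept cells. They were chosen after their values were seen. Pnoc, the precursor of the opioid-like peptide nociceptin, had 82 UMIs in 38 NeuroD1 cells and 5 UMIs in 4 GFP cells, at 194 and 117 CPM, against 0.238 and 0.519 CPM in other kept cells and 0 UMIs in both other kinds of neuron. Ecel1, an endopeptidase-like membrane protein, was at 459 and 376 CPM against 0.812 and 2.30 CPM. Gdf5, a bone morphogenetic protein ligand, was at 180 and 93.9 CPM against 1.27 and 0.461 CPM. Syndig1l, at 256 and 117 CPM, and Nxph4, a neurexin ligand at 277 and 117 CPM, showed the same pattern. Cd274, which encodes the immune checkpoint ligand PD-L1, had 83 UMIs in 55 cells and 7 UMIs in 5 cells, at 196 and 164 CPM. Other kept cells were at 4.39 and 17.6 CPM, and as they are far more numerous, most Cd274 UMIs lay outside the members. For these 6 genes the GFP values rest on 4 to 16 UMIs.

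Genes of cell death were looked at because Trp73 belongs to the p53 family and because these cells are known for dying early. Trp53 had 21 and 1 UMIs, and Trp63 had 0 UMIs in members of both libraries. Diablo, the mitochondrial antagonist of caspase inhibitors, was at 495 CPM (92 of 149 cells) and 258 CPM (11 of 27), against 31.5 and 34.2 CPM in other kept cells and 29.0 and 94.0 CPM in immature neurons. Bbc3, the p53 target Puma, was at 82.9 and 70.4 CPM against 9.70 and 10.7 CPM. Bax was at 161 and 164 CPM, near its level in other kept cells (125 and 175 CPM).

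Guidance and adhesion genes included Cntnap2, a neurexin-like adhesion protein, at 575 CPM (100 cells) and 446 CPM (13 cells) against 20.3 and 15.1 CPM in other kept cells. Cdh4, R-cadherin, was at 180 and 235 CPM against 8.23 and 6.86 CPM. Robo2, a Slit receptor, was at 140 and 70.4 CPM, on 59 and 3 UMIs, and Unc5b, a netrin receptor, at 121 and 47.0 CPM, on 51 and 2 UMIs.

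Because the 5xFAD transgenes use the Thy1 promoter, Thy1 and the amyloid genes were read in the same cells. Thy1 had 102 UMIs in 63 of 149 members and 8 UMIs in 8 of 27 members, at 241 and 188 CPM. The GFP excitatory neurons were at 14071 CPM and the small NeuroD1 excitatory set at 166 CPM. App was at 819 and 939 CPM in members and 691 and 649 CPM in other kept cells. The NeuroD1 and GFP excitatory neurons had it at 931 and 5411 CPM. The counts do not separate mouse App from reads of the human transgene. The related Aplp1 and Aplp2 were at 859 and 1009 CPM and at 940 and 634 CPM, and Mapt, the gene of tau, at 303 and 258 CPM.

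Members of the libraries were then compared gene by gene. Of 3391 genes with at least 30 UMIs in members together, 601 (17.7%) were at least 2-fold higher in the NeuroD1 library and 265 (7.81%) at least 2-fold lower. Counts behind many of these genes are low: a gene with 30 UMIs split by the totals gives 2.75 UMIs in the GFP sum. Among the 910 genes with at least 100 UMIs, 64 (7.03%) were higher and 50 (5.49%) lower. The median log2 ratio over all genes with at least 20 UMIs was -0.02.

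The identity genes had a list median near that of all genes. Over the 13 genes of the Cajal-Retzius list with at least 20 UMIs the median log2 ratio was 0.07, with 3 at least 1.5-fold higher and 1 lower, where 26.0% and 24.1% of all 4773 genes were. Summed over the list, members had 6042 and 6291 CPM, a ratio of 0.960 (0.846 to 1.09). Ndnf had a ratio of 0.910 (0.756 to 1.10) and Lhx1 of 1.24 (0.742 to 2.20). Calb2 was higher in the NeuroD1 library, with a ratio of 2.50 (1.34 to 5.28). Slc17a6 was lower, with a ratio of 0.397 (0.289 to 0.555), but 23 of its 49 GFP UMIs came from 1 cell. Without that cell the ratio was 0.728 (0.482 to 1.14), so the lower level in the NeuroD1 library rested on it.

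Immediate early genes, which cells transcribe within minutes of activity, stress or tissue dissociation, were higher in the NeuroD1 members. Of 17 with at least 20 UMIs, 11 were at least 1.5-fold higher and 0 lower, with a median log2 ratio of 0.77, against 26.0% higher and 24.1% lower and a median of -0.02 over all genes. The 20 UMIs were counted over both libraries together, here and for all genes. All 17 reached them in the NeuroD1 members alone, and 4 reached them in each library. The minimum thus let genes in through the library where they were higher, and the counts are description only. The list median was 1.84 after thinning to 500 UMIs per cell and 1.83 without the members that held over 1% of UMIs of another kind of cell. Each of these medians covers the genes that reached 20 UMIs in the reduced counts, which need not be the same 17, so neither is a like-for-like change from 0.77. Fos had 908 UMIs in 101 of 149 cells and 10 UMIs in 5 of 27 cells, which is 2150 and 235 CPM and a ratio of 9.16 (4.96 to 19.2). After thinning each cell to 500 UMIs Fos was seen in 46.3% of NeuroD1 members and in 11.1% of GFP members (3 of 27), against 67.8% and 18.5% unthinned. Egr1 was at 1068 and 399 CPM with a ratio of 2.68 (1.65 to 4.63). Junb had a ratio of 2.34 (1.54 to 3.73), Jun of 2.26 (1.55 to 3.43), Ier2 of 2.22 (1.22 to 4.50) and Btg2 of 2.84 (1.35 to 7.15). Jund was at 1738 and 1502 CPM, a ratio of 1.16 (0.895 to 1.52).

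The same genes differed between the libraries in other cells too, in part the other way. Fos was at 1546 and 47.0 CPM in immature neurons and at 1159 and 32.8 CPM in excitatory neurons, and at 634 and 342 CPM in all other kept cells, a ratio of 1.85 (1.80 to 1.90). Junb in all other kept cells was lower in the NeuroD1 library, at 992 and 1993 CPM, a ratio of 0.498 (0.491 to 0.505). Jun there was at 1364 and 1412 CPM and Egr1 at 214 and 245 CPM.

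**Figure D4:**
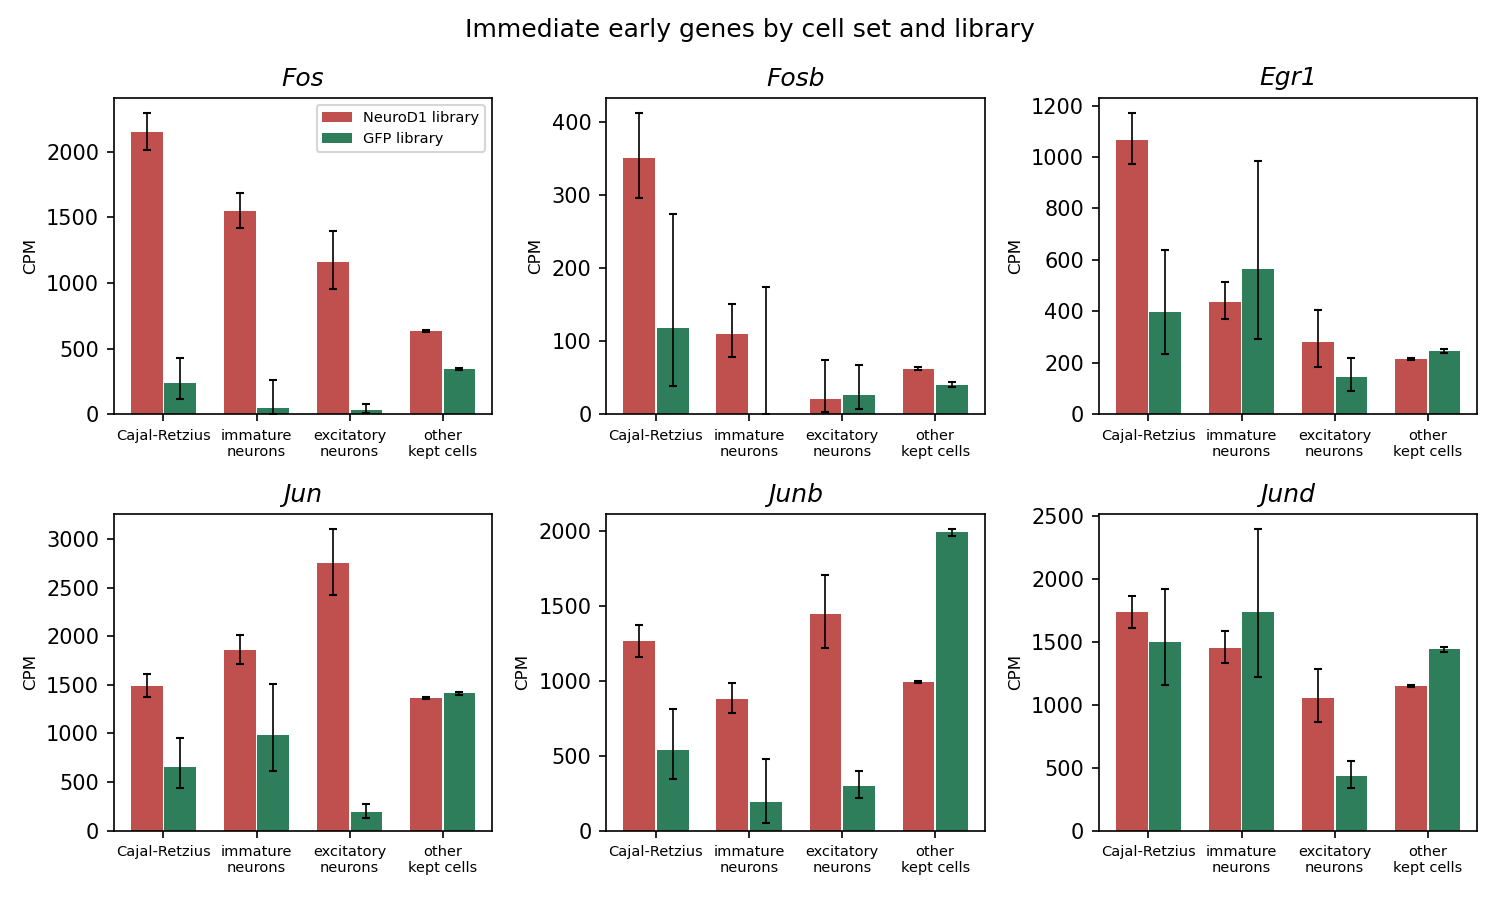
CPM of summed UMIs of 6 immediate early genes in Cajal-Retzius cells, immature neurons, excitatory neurons and all other kept cells; bars start at 0 and whiskers are exact Poisson 95% intervals. Fos is at 2150 and 235 CPM in Cajal-Retzius cells of the NeuroD1 and GFP libraries, and Junb in other kept cells is at 992 and 1993 CPM.

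Genes of other cells differed as well. Ttr was higher in the NeuroD1 members, with 12449 and 85 UMIs, at 29472 and 1995 CPM, and 5295 of the NeuroD1 UMIs lay in 1 cell. Its ratio was 14.8 (11.9 to 18.5), and 8.78 without that cell. In other kept cells the ratio was 6.07. Clu and Aldoc, which astrocytes make in quantity, had ratios of 5.00 (2.52 to 11.7) and 14.2 (2.51 to 566, on 1 GFP UMI). For Aldoc 80 of the 141 NeuroD1 UMIs lay in 1 cell. Without the top cell Clu and Aldoc had ratios of 3.49 and 6.27. Of the 10 microglial genes 6 were at least 1.5-fold lower in the NeuroD1 members and 2 higher, where 24.1% and 26.0% of all genes were. Lower were Tyrobp, at 47.3 and 563 CPM, C1qa, at 87.6 and 423 CPM, and Ctss, at 142 and 563 CPM, whereas Csf1r, Cx3cr1 and Tmem119 had 28 and 1, 36 and 2, and 25 and 0 UMIs. Tyrobp had a ratio of 0.0840 (0.0440 to 0.159) in members and 0.0776 in other kept cells. Leaving out the single GFP member with most UMIs of the gene, the ratios of Tyrobp, C1qa, C1qb and Ctss were 0.207, 0.358, 1.42 and 0.798.

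Markers of other cells were counted as whole lists in the members. The 10 microglial genes, all 10 with a UMI in the NeuroD1 and 9 in the GFP members, summed to 1132 and 3169 CPM, against 3727 and 19429 CPM in other kept cells; Tmem119 was at 0 in the GFP members. In 1 GFP member lay 88 of the 135 GFP UMIs of this list, and without it the GFP sum was 1195 CPM. The 10 oligodendrocyte genes summed to 3942 and 7277 CPM, against 19316 and 16646 CPM, and none was at 0; without the GFP member that held 170 of the 310 UMIs the GFP sum was 3539 CPM. The 10 endothelial genes summed to 2183 and 4437 CPM, but 151 of the 189 GFP UMIs lay in 1 member, and without it the GFP sum was 956 CPM. Leaving out the richest GFP member alone thus brought the microglial sums close and made the NeuroD1 sums of the other 2 lists the higher ones. With the richest NeuroD1 member of each list left out, the NeuroD1 sums were 722, 3293 and 1833 CPM for microglia, oligodendrocytes and endothelium. With both left out, the microglial and oligodendrocyte sums were lower in the NeuroD1 members and the endothelial sum was higher. The 10 astrocyte genes, of which 4 belong to the rule, summed to 1006 and 634 CPM, with Gja1 at 0 in the GFP members; without the member that held 208 of the 425 NeuroD1 UMIs the NeuroD1 sum was 523 CPM. Choroid plexus genes summed to 29794 and 2042 CPM, and the NeuroD1 sum was 17714 CPM without its richest member. The 10 lymphocyte genes had 0 UMIs in members of both libraries, and the 5 red blood cell genes 342 and 0 UMIs. Of the members, 40 of 149 and 5 of 27 had over 1% of their UMIs from at least 1 of these lists. Scrublet, which scores barcodes against simulated pairs of cells, called 13 of the 149 and 1 of the 27 doublets. Without these 40 and 5 mixed members, an exclusion chosen after the data were seen that left 109 and 22 cells, the log2 ratios of Fos, Egr1 and Jun were 4.94, 2.79 and 2.25, against 3.13, 1.38 and 1.15 with them. Those of Ttr and Clu were 1.63 and 1.09, against 3.88 and 2.24. Even before the exclusion the GFP members had 10, 17 and 28 UMIs of Fos, Egr1 and Jun, and after it they held 29572 UMIs in all. No interval was computed for the ratios without mixed members, so a larger ratio there is not a measured rise.

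For some genes the ratio in all other kept cells was similar to or above that in members. Atp5g1, a subunit of ATP synthase, had 81 UMIs in the NeuroD1 and 0 in the GFP members. With 3 UMIs set in place of the 0, that is at least 2.72-fold higher, a floor and not the end of an interval. The ratio of Atp5g1 in other kept cells was 15.3. Rsrp1, a splicing-related protein, was at 708 and 188 CPM, a ratio of 3.77 (1.89 to 8.81), and 3.75 in other kept cells. Stmn1 had a ratio of 2.08 (1.59 to 2.76) in members and 2.69 in other kept cells. Tubb4b, a beta-tubulin, had a ratio of 3.54 (1.77 to 8.29) in members and 2.38 in others, inside that interval. Tra2b, a splicing regulator, was at 227 and 23.5 CPM on 96 and 1 UMIs, a ratio of 9.68 (1.70 to 386), and 1.06 in other kept cells. Polr2g and Dzip3 had 69 and 64 UMIs in NeuroD1 members and 0 in GFP members. By the same floor they were at least 2.32-fold and 2.15-fold higher, with ratios of 1.01 and 0.955 in other kept cells. Among the genes lower in the NeuroD1 library, Prim1, Mrpl17, Pllp, Vwa1 and Fam173a had 11 to 15 of their GFP UMIs in 1 cell, and without it their ratios were 1.46, 0.519, 0.453, 1.69 and 1.21. Adamts1, a metalloprotease, had 35 and 17 UMIs and a ratio of 0.208 (0.113 to 0.395), against 0.410 in other kept cells; 26 of the 35 NeuroD1 UMIs lay in 1 cell, and without it the ratio was 0.0547.

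**Figure D5:**
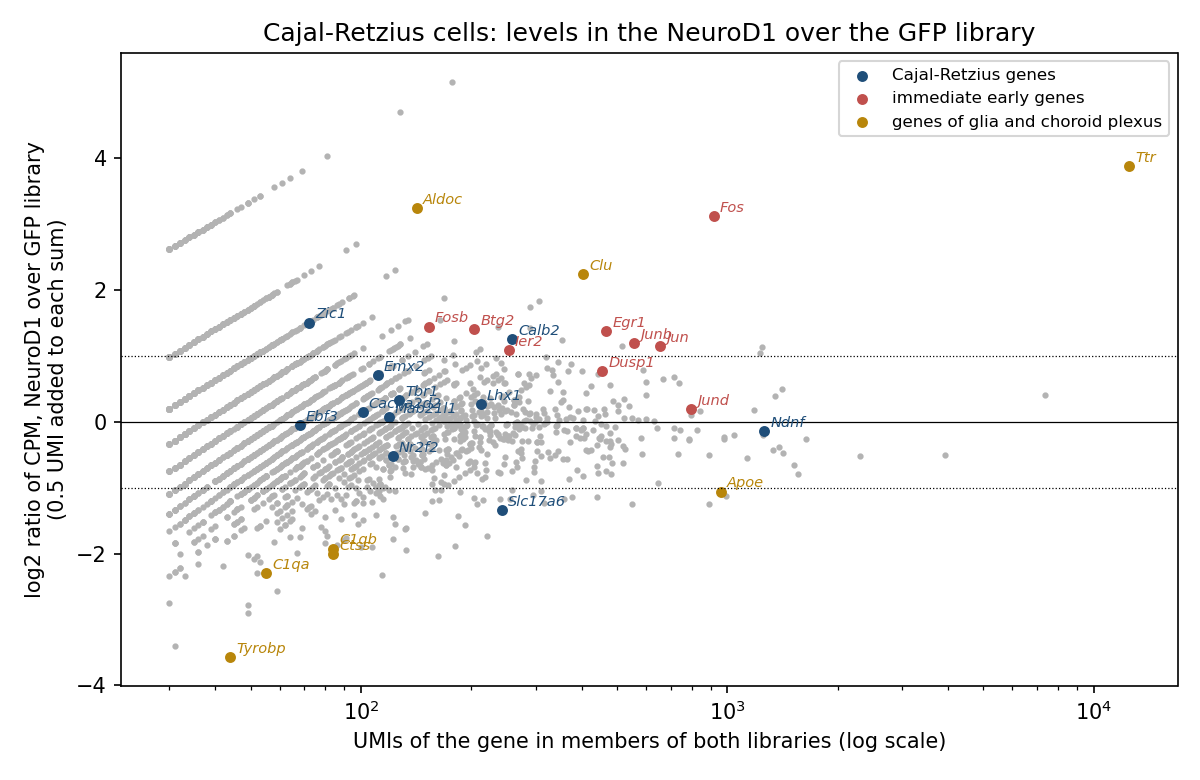
Log2 ratio of CPM in Cajal-Retzius cells, NeuroD1 over GFP library (0.5 UMI added to each sum), against the UMIs of the gene in both member sums (log scale), for 3391 genes with at least 30 UMIs; dotted lines mark 2-fold. The stripes on the left are genes with 0, 1, 2 and more GFP UMIs, and Fos and Ttr lie apart on the upper right while Ndnf lies near 0.

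The other lists are read against the 26.0% of all genes that were at least 1.5-fold higher and the 24.1% lower, and most of their counts lay near or under those shares. Nuclear genes of oxidative phosphorylation had a median log2 ratio of -0.04, with 6 of 32 at least 1.5-fold higher and 4 lower, and heat shock and unfolded protein genes a median of -0.07, with 5 of 20 higher and 3 lower. Among 23 genes of mature neurons and synapses 7 were higher and 3 lower, with a median of 0.40. Proneural and immature genes had 5 of 12 higher and 2 lower, cell death genes 2 of 11 higher and 0 lower. Amyloid and tau genes had 1 of 10 higher, Clu, and 1 lower, Apoe, at 1877 and 3897 CPM. The 5 genes with at least 20 UMIs of GABA and glycine receptors and chloride transporters had a median of -0.75, with 1 higher and 3 lower. Of the interferon list 2 genes had at least 20 UMIs, Ifi27 and Ifitm3, both lower, with a median of -2.17; antigen presentation had 2 of 4 lower, among them H2-D1, an MHC class I heavy chain at 227 and 657 CPM, whose log2 ratio was 0.00 without the mixed members.

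Little RNA of the vectors was counted in these cells, and in the NeuroD1 library the other kept cells had as little. The vector's GFP had 6 UMIs in 5 of 149 members and 3 UMIs in 3 of 27 members, at 14.2 and 70.4 CPM, against 12.7 and 1528 CPM in all other kept cells, of which 2.10% and 18.7% had a UMI of it. The feature named ND1 in the files had 0 UMIs in members of both libraries, a count that is not set against other cells here. Neurod1 itself was at 11.8 and 0 CPM in members and at 7.36 and 5.01 CPM in the other kept cells.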

How the data were processed

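Single-cell RNA was measured in 1 library per vector group. The authors deposited raw UMI counts per gene and barcode; FastQC, fastp, cutadapt, STAR, featureCounts and the mm39 build are named per the submitters' processing notes, and all deposited barcodes had at least 500 UMIs. Versions and strandedness are not given in the sources used here. Members and gene lists were chosen with earlier results of these data known. Here the counts of 53717 features were filtered by genes and mitochondrial share, the rule was applied, and UMIs were summed per library and kind of cell (scipy 1.17.1 and numpy 2.4.6 in Python 3.11.15). Levels have exact Poisson intervals, ratios exact conditional binomial ones. They cover counting error only, and no p-value was computed, since each group is 1 library. Where a sum was 0, 3 UMIs served as floor for "at least", which leaves out counting error in the other sum. Doublets were scored with Scrublet (scanpy 1.11.5) and kept. Genes named were the 20 outside the rule with at least 20 UMIs in each library and the largest lower ratio over other kept cells, the 10 per direction with at least 30 UMIs whose interval between libraries lay furthest from a ratio of 1 (without genes of mitochondria, ribosomes, haemoglobin or sex (Xist, Tsix, Y-linked), unnamed genes and pseudogenes), and genes from 26 lists. The steps were tested on simulated data. Alternatives changed the filters, the rule, depth by thinning, and the cells kept. Results for some genes are not reported here.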

Additional observations from a re-analysis of the deposited data

How the results depend on the processing

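The ratio of Cajal-Retzius shares was 9.09 with at least 5 UMIs of the selection genes and 2.07 among neuronal cells, and between 3.91 and 5.82 under the 7 other settings. Genes at least 2-fold higher in NeuroD1 members numbered 74 of 538 (13.8%) after thinning to 500 UMIs, 398 of 2383 (16.7%) without mixed members and 64 of 910 (7.03%) at 100 UMIs or more, against 601 of 3391 (17.7%). Those lower numbered 33 (6.13%) after thinning and 50 (5.49%) at 100 UMIs or more, against 265 (7.81%). With at least 5 selection UMIs 707 of 2655 (26.6%) were higher and 345 (13.0%) lower. Genes at least 4-fold over other cells numbered 41 of 346 (11.8%) as reported, and 8 of the same 346 against other neurons only. They numbered 118 at 10 UMIs per library and 7 after thinning. These settings also changed how many genes were tested, so the 118 and the 7 cannot be set beside the 41. With at least 5 UMIs of the selection genes the log2 medians of the oligodendrocyte and endothelial lists turned to 2.34 and 0.51, and the log2 ratios of Apoe, C1qb, H2-D1, Pllp and Slc12a2 to 0.18, 0.21, 2.13, 1.21 and 1.27. Without mixed members the endothelial median was 0.74 and the H2-D1 ratio 0.0048. Against other neurons only, the lower log2 ratio was -0.0089 for Caly, -0.016 for Kif5c, -1.40 for Syt1, -1.09 for Rtn1 and -0.053 for Gprasp1. The cause was not tested. Of the other values, 495 gene ratios moved by less than their error and 73 by more. No error was computed for list medians and marker ratios, which were judged by a fixed cut of 1.5-fold. By that cut 122 list medians and 78 marker ratios stayed, and 17 and 17 moved. The moved values were not counted as turned, though some changed sign. The median of glutamate receptors, for example, went from -0.50 to 0.15 without Scrublet doublets. Leaving out mixed members or the single richest member, and a minimum of 2 selection UMIs, were chosen after seeing the data. A planned subtraction of free RNA gave no value, as it would have removed 128% of the NeuroD1 members' UMIs. No paired analysis was possible because each group is 1 library. The 27 GFP cells and their 42598 UMIs limit the precision of every comparison between libraries.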
